A study of Mus musculus with 18 samples.

Results

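The SLC25 proteins are the carriers that move metabolites, nucleotides, cofactors and ions across the inner mitochondrial membrane. Their messenger RNAs were followed here in mouse hepatocytes of both zones of the liver lobule through feeding and fasting. The members were chosen by name alone: every Ensembl gene of the count table whose mouse symbol begins with Slc25a and a digit, other than Slc25a13, Slc25a15, Slc25a20 and pseudogenes. Of 48 such symbols, 44 were kept, out of 28030 genes in the table. Of these 44, 39 passed the filter on low counts and were tested, among 12477 genes tested in all.

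RNA sequencing was done on pericentral and periportal hepatocytes of wild-type C57BL/6J male mice aged 12 weeks and kept on normal chow, the zones being separated with digitonin, a detergent that opens cells at one end of the lobule. All mice were trained for 3 days to a cycle of 16 h of fasting and 8 h of feeding. For every group, fasted ones included, 20% sucrose is recorded. Each zone was sampled in 3 states, with 3 libraries per group: fed mice, killed at clock hour 13 after 4 h of feeding with 20% sucrose in the water; mice fasted for 8 h, killed at clock hour 21; and mice fasted for 24 h, killed at clock hour 13. Fasting for 8 h and clock hour therefore cannot be told apart. Nor can length of fast and clock hour be told apart between 8 h and 24 h. The labels do not say whether libraries with the same number share a mouse or a day, and p-values measure the spread between these libraries only.

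A carrier of this family has a core of repeated membrane-spanning helices and exchanges a substrate on the matrix side for one outside, or lets it through together with protons. In liver, these carriers link the cytosolic and matrix steps of gluconeogenesis, the urea cycle, the malate-aspartate shuttle, citrate export for lipid synthesis and the supply of cofactors to matrix enzymes. Periportal hepatocytes are known for gluconeogenesis, urea synthesis and amino acid breakdown, and pericentral hepatocytes for glycolysis, glutamine synthesis and drug metabolism.

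Estimated counts per library summed to between 18359911 and 26384358, and levels below are CPM (counts scaled to a total of 1e+06 per library with TMM factors), which do not allow for gene length, so that no levels of different genes are compared. Per the hepatocyte zone markers, the labels held: all 4 periportal markers (Hal, Sds, Gls2 and Cyp2f2) were called higher in periportal cells in every state. All 4 pericentral markers (Cyp2e1, Glul, Oat and Cyp1a2) were called lower there in fed and 8 h libraries, and 3 of them, without Glul, at 24 h. Pericentral 24 h replicate 2 stood apart, with Glul at 111 CPM against 928 and 707 in its group and Cyp2f2 at 793 CPM against 345 and 322. Periportal 8 h replicate 1 stood apart in the hepatocyte gene Tat, at 964 CPM against 4440 and 3010. Pericentral markers were higher in periportal fed replicate 2 than in its group, with Cyp2e1 at 1210 CPM against 373 and 325 and Cyp1a2 at 119 CPM against 39 and 21. In periportal 24 h replicate 1, Cyp2e1 was at 1830 CPM against 944 and 417. Markers of other cell types summed to at most 25.8 CPM for sinusoidal endothelial cells, 18.2 CPM for Kupffer cells and leukocytes, 14.6 CPM for stellate cells and 56.7 CPM for cholangiocytes, whose marker Epcam was at 0 in every library. With the states averaged, 3 of 4 tested endothelial, 3 of 5 Kupffer and leukocyte and 2 of 3 tested cholangiocyte markers were called higher in the periportal libraries, as were 10.3% of all genes. Their part in the zone differences of the carriers was not tested. In bulk libraries, fewer cells of a type and less RNA per cell cannot be told apart.

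Across the lobule, a minority of carriers differed in any one feeding state. Called here means an edgeR quasi-likelihood test with a Benjamini-Hochberg adjusted p under 0.05, adjusted over all genes tested. In fed mice 6 of the 39 tested carriers (15.4%) were called between the zones, against 8.01% of all genes. Of these, 3 were higher in periportal cells (background 3.89%) and 3 lower (background 4.13%). After 8 h of fasting 6 carriers (15.4%) were called, against 7.14% of all genes, again 3 higher (3.72%) and 3 lower (3.42%). After 24 h the count was 3 (7.69%), against 4.17%, with 1 higher (1.7%) and 2 lower (2.47%). With the states averaged, 16 carriers (41%) were called, against 20.3% of all genes, 9 higher (10.3%) and 7 lower (9.96%). The median log2 difference over the 39 was 0.04 in that comparison, against 0.00 over all genes. The log2 difference was above 0 for 20 carriers and below 0 for 19, so by count the carriers leaned to neither zone.

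**Figure D1:**
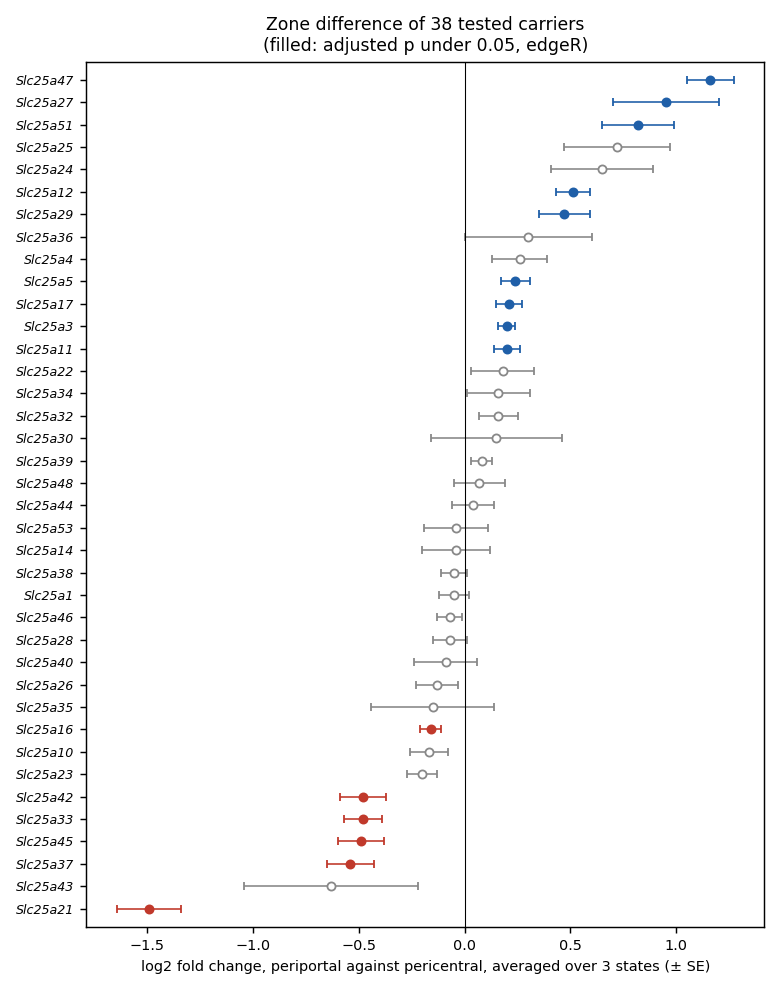
Log2 difference between periportal and pericentral hepatocytes, averaged over the 3 feeding states, for 38 of the tested carriers, with bars for ± 1 SE and filled points for the 15 of them that were called. Slc25a47 lies farthest on the periportal side at 1.16 and Slc25a21 farthest on the pericentral side at -1.49.

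More carriers were called in each comparison of fasted with fed mice than between the zones in any one state. In pericentral cells 14 carriers (35.9%) were called after 8 h against fed, where 13.8% of all genes were, with 7 higher (background 7.27%) and 7 lower (6.57%). After 24 h 18 (46.2%) were called against a background of 21.8%, with 13 higher (10.8%) and 5 lower (11.1%). In periportal cells 13 (33.3%) were called after 8 h against a background of 14.4%, with 9 higher (7.56%) and 4 lower (6.85%). After 24 h 14 (35.9%) were called against 19.6%, with 11 higher (9.59%) and 3 lower (10%). The median log2 change over the 39 carriers at 24 h was 0.26 in pericentral and 0.17 in periportal cells, against 0.01 and -0.00 over all genes. In the pericentral 24 h libraries the 4 periportal markers were also called higher against fed, by 1.14 (Gls2) to 4.35 (Sds) on the log2 scale. The part of this in the pericentral carrier changes was not tested.

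From 8 h to 24 h, 8 carriers (20.5%) were called in pericentral cells against a background of 9.71%, with 7 higher (5.2%) and 1 lower (4.51%). In periportal cells 5 (12.8%) were called against 7.46%, with 3 higher (3.22%) and 2 lower (4.24%). The pericentral count was 3, 5 or 4 without pericentral 8 h replicate 1, 8 h replicate 2 or 24 h replicate 3, and the periportal count was 2 or 3 without any 1 of 7 libraries. Without pericentral 24 h replicate 2, 16 carriers in place of 18 were called in pericentral cells at 24 h against fed and 2 in place of 3 between the zones at 24 h. Without periportal 8 h replicate 1, 11 in place of 13 were called in periportal cells at 8 h and 9 in place of 6 between the zones at 8 h.

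The fasting lists of the 2 zones rest on different libraries. At 8 h 9 carriers were called in both zones, 64.3% of the pericentral and 69.2% of the periportal list, 7 higher in both and 2 lower in both. Over all genes the shares were 60.9% and 58.5%. At 24 h 13 were called in both, 72.2% of the pericentral and 92.9% of the periportal list, 10 higher and 3 lower, where over all genes the shares were 56.3% and 62.8%. A difference between the zones in the response itself was called for 0 carriers from fed to 8 h (edgeR, background 0% of all genes) and for 0 from fed to 24 h (background 0.016%). At an unadjusted p under 0.05 there were 4 and 2 carriers (10.3% and 5.13%, against 5.45% and 7.71% of all genes), and DESeq2 and limma-voom each called 0. A carrier called in 1 zone alone is thus not shown to respond differently there.

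**Figure D2:**
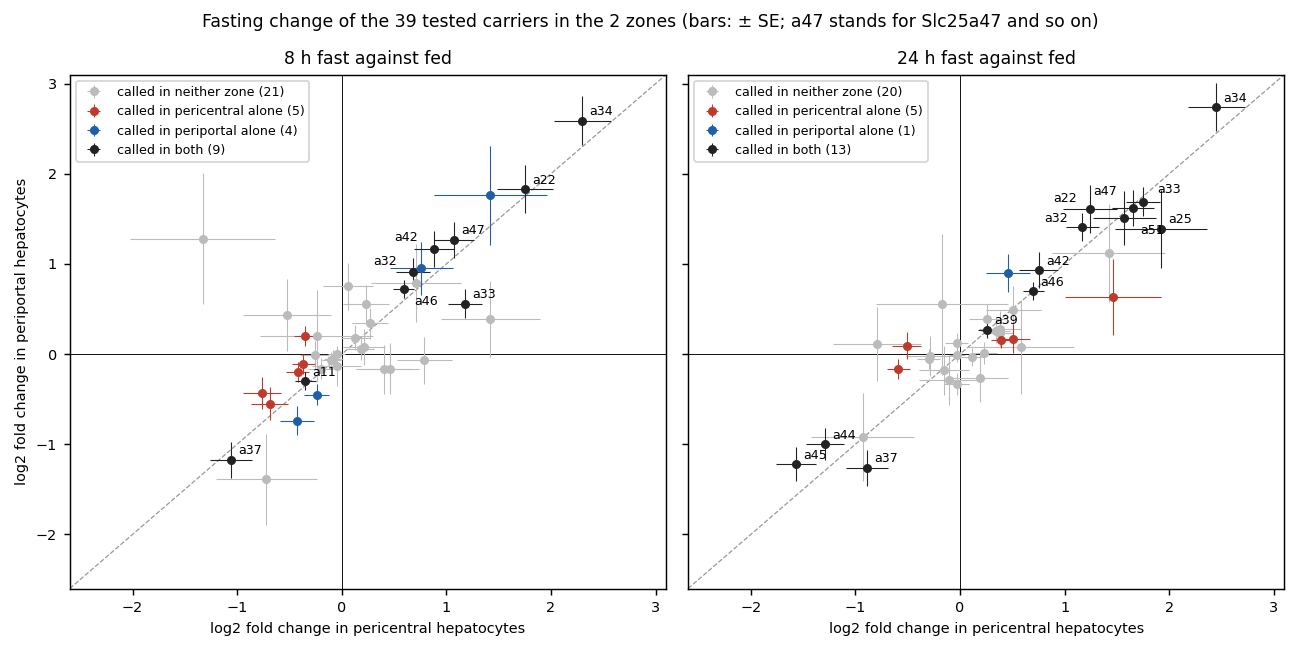
Log2 fold change on fasting for 8 h (left) and 24 h (right) against fed in pericentral hepatocytes (x axis) and periportal hepatocytes (y axis) for the 39 tested carriers, with bars for ± 1 SE and colours for the zones in which a carrier was called. The 9 carriers called in both zones at 8 h and the 13 at 24 h lie in the quadrants where both zones moved the same way, with Slc25a34 farthest from the origin.

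In all, 28 carriers were called in at least 1 comparison. Of these, 14 were called both by zone and by feeding state, 2 (Slc25a12 and Slc25a3) by zone only and 12 by feeding state only. As shares of the 39 these were 71.8%, 35.9%, 5.13% and 30.8%, against 49.6%, 10.3%, 11% and 28.3% of all genes tested. The 7 carriers called higher in all 4 comparisons with fed mice were Slc25a22, Slc25a32, Slc25a33, Slc25a34, Slc25a42, Slc25a46 and Slc25a47, which is 17.9% of the 39 against 2.42% of all genes. Slc25a37 was the only carrier called lower in all 4 (2.56%, against 2.39% of all genes).

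The promoters of 3 of those 7, and of Slc25a25, are shown as the 250 bases before the RefSeq transcription start (GRCm38.p6, each on the strand of its gene, 5′ to 3′). The 3 were higher in all 4 comparisons with fed mice, and Slc25a25 was called higher in both zones at 24 h. Slc25a22 and Slc25a42 met the same condition as the 3, and their promoters, which had no match to a searched motif, are not shown. Slc25a32 and Slc25a46 also met it but had no entry among the promoters searched. The promoters shown are those of Slc25a47 at chr12:108850879-108851128 (plus strand), Slc25a34 at chr4:141623835-141624084 (minus), Slc25a33 at chr4:149774268-149774517 (minus) and 1 of 3 starts of Slc25a25 at chr2:32424067-32424316 (minus). That start of Slc25a25 is shown because it alone of the 3 has a match to a searched motif. The bases just after it, and those just after the start of Slc25a34, were not found near the start of a GENCODE M21 transcript of the gene, whereas those after another start of Slc25a25, with no motif match, were. Capitals mark the E-box CACGTG of Slc25a33, whose first base lies 8 bases before the start, and the cAMP response element TGACGTCA of Slc25a25, 150 bases before it.
Slc25a47: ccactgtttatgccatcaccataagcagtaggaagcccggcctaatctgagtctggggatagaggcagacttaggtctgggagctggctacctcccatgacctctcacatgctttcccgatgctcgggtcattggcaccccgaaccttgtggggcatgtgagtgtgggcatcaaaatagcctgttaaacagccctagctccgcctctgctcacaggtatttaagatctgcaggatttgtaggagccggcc
Slc25a34: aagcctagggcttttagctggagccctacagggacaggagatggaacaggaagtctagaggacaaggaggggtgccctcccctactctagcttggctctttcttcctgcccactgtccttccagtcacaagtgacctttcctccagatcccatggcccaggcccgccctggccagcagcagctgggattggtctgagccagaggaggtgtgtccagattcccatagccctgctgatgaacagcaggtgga
Slc25a33: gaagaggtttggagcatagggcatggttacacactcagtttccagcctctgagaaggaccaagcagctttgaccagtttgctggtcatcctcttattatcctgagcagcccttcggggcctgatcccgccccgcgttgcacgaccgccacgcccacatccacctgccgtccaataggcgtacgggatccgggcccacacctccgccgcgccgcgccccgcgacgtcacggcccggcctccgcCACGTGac
Slc25a25: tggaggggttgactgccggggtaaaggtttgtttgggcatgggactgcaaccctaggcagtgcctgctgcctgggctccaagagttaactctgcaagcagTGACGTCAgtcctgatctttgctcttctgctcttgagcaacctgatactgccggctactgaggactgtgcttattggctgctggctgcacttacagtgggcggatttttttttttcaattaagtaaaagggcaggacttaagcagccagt

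Motifs of factors known for fasting or clock control were searched on both strands in all 32841 RefSeq promoters of this length, of which 42 belonged to 33 of the carriers. The palindrome TGACGTCA, bound by CREB, was in 1.55% of all promoters and in 2 carrier promoters, those of Slc25a25 and Slc25a36. The E-box CACGTG, bound by CLOCK and BMAL1 among others, was in 6.02% of all promoters and in 6 carrier promoters, those of Slc25a1, Slc25a14, Slc25a31, Slc25a33 and Slc25a36. Of these, 2 are overlapping promoters of Slc25a14 that hold the same site, 54 and 184 bases before their starts. No carrier promoter held the PPAR motif (AGGTCA repeated after a gap of any 1 base, 0.0335% of all), the FOXO motif TGTTTAC (3.17%), the glucocorticoid receptor motif (GNACA, any 3 bases, TGTNC, 0.387%) or the D-box TTATGTAA (0.819%). A match is a string of letters and not a bound site.

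Slc25a47, a carrier made mainly in liver whose substrate is not settled, had the highest periportal excess of the 39 with the states averaged (log2 1.16 ± 0.11, edgeR adjusted p = 1.3e-06). It lies on GRCm38 chromosome 12 from 108836046 to 108856815. In fed pericentral libraries it stood at 162, 244 and 191 CPM in replicates 1 to 3, at 8 h of fasting at 322, 526 and 404 CPM and at 24 h at 598, 623 and 651 CPM. In fed periportal libraries it stood at 438, 450 and 394 CPM, at 8 h at 978, 1110 and 990 CPM and at 24 h at 935, 1510 and 1510 CPM. In each state every periportal library was above every pericentral one, and in each zone every fasted library was above every fed one. The log2 zone difference was 1.10 ± 0.19 (SE) when fed, 1.30 ± 0.20 after 8 h and 1.08 ± 0.19 after 24 h (edgeR adjusted p = 0.00159, 0.000553 and 0.00363). Against fed it was higher by 1.07 ± 0.19 at 8 h and 1.65 ± 0.20 at 24 h in pericentral cells (edgeR adjusted p = 0.00139 and 2.98e-05). In periportal cells it rose by 1.27 ± 0.20 and 1.62 ± 0.20 (edgeR adjusted p = 0.000422 and 3.87e-05). Its neighbour on the opposite strand is Slc25a29, described below. The start whose promoter is shown above lies within the span of Slc25a47 and not next to Slc25a29.

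**Figure D3:**
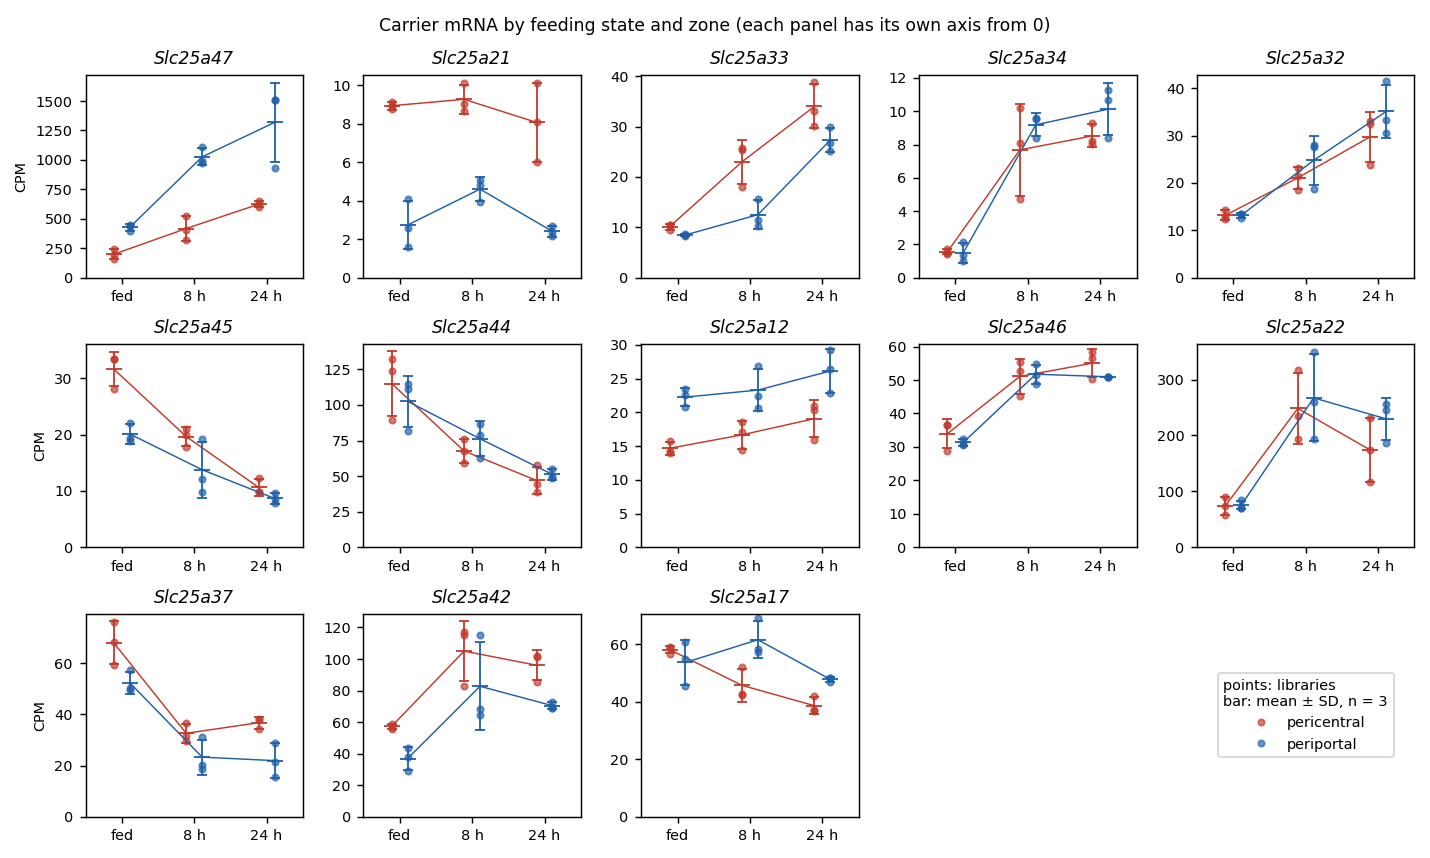
CPM of 13 of the carriers described by library (Slc25a25 and Slc25a30 have no panel), 1 panel per gene, with 1 point per library, marks and bars for the mean ± SD of 3 libraries, lines joining the means, pericentral libraries in red, periportal libraries in blue and the 3 feeding states on the x axis. In the Slc25a47 panel the periportal points lie above the pericentral points of the same state, and both sets rise on fasting.

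Among the carriers of citric acid cycle intermediates and keto acids, Slc25a21 had the widest pericentral excess with the states averaged (log2 -1.49 ± 0.15, edgeR adjusted p = 1.42e-06), and the others were called with feeding state. Slc25a21 carries 2-oxoadipate, an intermediate of lysine and tryptophan breakdown. It stood at 8.75, 8.90 and 9.15 CPM in fed pericentral libraries, at 8.68, 9.02 and 10.1 CPM after 8 h and at 10.1, 5.99 and 8.11 CPM after 24 h. In periportal libraries it stood at 2.56, 4.07 and 1.58 CPM when fed, at 3.92, 4.80 and 5.08 CPM after 8 h and at 2.35, 2.70 and 2.16 CPM after 24 h. The zones did not overlap in any state, and the lowest pericentral value belonged to 24 h replicate 2, the library with low Glul. The highest fed periportal value, 4.07 CPM, belonged to replicate 2, the fed periportal library with the most Cyp2e1. The log2 zone difference was -1.71 ± 0.25 when fed, -1.01 ± 0.25 after 8 h and -1.74 ± 0.26 after 24 h (edgeR adjusted p = 0.000354, 0.017 and 0.000814). The 8 h call was lost without pericentral 8 h replicate 3 (-0.96), periportal 8 h replicate 1 (-0.92) or periportal 8 h replicate 2 (-1.05). From 8 h to 24 h it fell in periportal cells by 0.93 on the log2 scale (SE 0.26, edgeR adjusted p = 0.0413), a call lost without any 1 of 10 of the 18 libraries. An exon of Slc25a21 overlaps Pax9 on the opposite strand, and the use of strand in counting is not stated.

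Slc25a10, the dicarboxylate carrier that exchanges malate and succinate for phosphate, had its lowest mean at 8 h and its highest at 24 h in both zones. Pericentral means were 225 ± 10.5 CPM (SD, n = 3) when fed, 167 ± 36.7 at 8 h and 320 ± 29.6 at 24 h, and periportal means were 232 ± 26.1, 139 ± 21.1 and 261 ± 47 CPM. From 8 h to 24 h it rose by 0.94 ± 0.16 (log2, SE) in pericentral and 0.90 ± 0.16 in periportal cells (edgeR adjusted p = 0.00204 and 0.00355). Against fed it fell by 0.74 at 8 h in periportal cells (SE 0.16, edgeR adjusted p = 0.00568). In pericentral cells it was higher at 24 h by 0.51 ± 0.16 (edgeR adjusted p = 0.0326), a call lost without any 1 of 5 libraries: pericentral fed replicate 1 (0.46), 2 (0.53) or 3 (0.51) and pericentral 24 h replicate 1 (0.50) or 2 (0.43).

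Slc25a11, the oxoglutarate carrier of the malate-aspartate shuttle, had the same dip at 8 h by smaller amounts. Pericentral means were 55.5 ± 5.29, 43.7 ± 4.05 and 59.7 ± 0.38 CPM (SD, n = 3) in the order fed, 8 h and 24 h, and periportal means were 65.2 ± 3.67, 52.8 ± 3.92 and 64.1 ± 6.83 CPM. It was higher in periportal cells by 0.20 ± 0.06 (log2) with the states averaged (edgeR adjusted p = 0.0181). The 8 h change against fed was -0.35 ± 0.10 in pericentral and -0.30 ± 0.10 in periportal cells (edgeR adjusted p = 0.0277 and 0.0496). The first was lost without any 1 of 4 libraries (pericentral fed replicates 2 and 3, -0.34 and -0.28, and pericentral 8 h replicates 1 and 2, -0.27 and -0.36) and the second without any 1 of 12. Its rise from 8 h to 24 h in pericentral cells was 0.45 ± 0.10 (edgeR adjusted p = 0.00977), and was not called without pericentral 8 h replicate 1 (0.37).

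Slc25a1, the citrate carrier that feeds cytosolic acetyl-CoA for lipid synthesis, fell at 8 h in pericentral cells from 218 ± 14.6 to 169 ± 22.1 CPM (SD, n = 3), by 0.37 on the log2 scale (SE 0.11, edgeR adjusted p = 0.0387). That call was lost without any 1 of 6 libraries (-0.29 to -0.41), with no filter, with the replicate number as a block and with only the groups compared in the fit. In periportal cells its means ran from 173 ± 4.07 to 186 ± 30.2 CPM with no call.

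Amino acid carriers did not move as a group. The glutamate carrier Slc25a22 rose in both zones, the branched-chain amino acid carrier Slc25a44 fell, and Slc25a12, an aspartate-glutamate carrier, was called between the zones. Of the 7 carriers in this group 5 were tested, and at 24 h against fed 1 was called higher and 1 lower in pericentral cells (10.8% and 11.1% of all genes), and 2 higher and 1 lower in periportal cells (9.59% and 10%).

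Slc25a22 stood at 89.7, 74.3 and 57.7 CPM in fed pericentral libraries, at 193, 317 and 235 CPM after 8 h and at 232, 116 and 174 CPM after 24 h. The periportal libraries held it at 70.8, 84.0 and 70.9 CPM, then at 194, 349 and 259 CPM, then at 187, 246 and 256 CPM. Every fasted library was above every fed library of its zone, the zones overlapped in each state, and pericentral 24 h replicate 2 was the lowest fasted library. Pericentral cells gained 1.75 ± 0.27 (log2, SE) after 8 h and 1.24 ± 0.26 after 24 h (edgeR adjusted p = 0.00043 and 0.00362). It was 1.83 ± 0.27 and 1.61 ± 0.27 in periportal cells (edgeR adjusted p = 0.000384 and 0.00073).

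Slc25a44 stood at 132, 89.3 and 124 CPM in fed pericentral libraries, at 59.2, 75.8 and 68.0 CPM after 8 h and at 57.7, 38.9 and 44.3 CPM after 24 h. In periportal libraries it stood at 111, 115 and 81.9 CPM, then at 62.9, 86.8 and 79.0 CPM, then at 55.3, 49.0 and 49.2 CPM. Each 24 h library was below each 8 h and fed library of its zone, and at 8 h the pericentral groups were apart while the periportal ones overlapped. It fell by 1.29 (log2, SE 0.18) at 24 h in pericentral and by 1.0 (SE 0.18) in periportal cells (edgeR adjusted p = 0.000111 and 0.000966). The 8 h fall was 0.76 (SE 0.18, edgeR adjusted p = 0.00784) in pericentral cells, while the periportal value was -0.43 ± 0.18 (edgeR adjusted p = 0.12).

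Slc25a12 brings glutamate in for aspartate in the malate-aspartate shuttle. It stood at 14.3, 13.9 and 15.8 CPM in fed pericentral libraries, at 18.5, 17.1 and 14.4 CPM after 8 h and at 20.3, 21.0 and 15.9 CPM after 24 h. The periportal libraries held it at 22.5, 23.5 and 20.8 CPM, then at 20.7, 26.8 and 22.4 CPM, then at 29.2, 22.8 and 26.4 CPM. Periportal libraries were above the pericentral ones of the same state throughout. The log2 zone difference was 0.51 ± 0.08 averaged over the states (edgeR adjusted p = 0.000123), 0.60 ± 0.13 in fed mice (0.00898) and 0.48 ± 0.13 at 8 h (0.0372). The fed call was lost without pericentral fed replicate 2 (0.56), and the 8 h call without any 1 of 9 libraries (0.37 to 0.51). At 24 h the difference was 0.45 ± 0.13 and was not called (edgeR adjusted p = 0.0683).

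Slc25a29, a carrier of basic amino acids, and Slc25a38, the glycine carrier that serves haem synthesis, were called in fewer comparisons than Slc25a22. By gene span, Slc25a29 is the divergent neighbour of Slc25a47 on chromosome 12 (108825873 to 108835883, minus strand). Its periportal means were 2.62 ± 0.404, 3.88 ± 0.93 and 4.89 ± 0.757 CPM (SD, n = 3) from fed to 24 h, with a rise of 0.90 ± 0.21 (log2, SE) at 24 h (edgeR adjusted p = 0.00658). Its pericentral means were 2.26 ± 0.318, 2.65 ± 0.0961 and 3.12 ± 0.516 CPM with no fasting call, and the averaged zone difference was 0.47 ± 0.12 (edgeR adjusted p = 0.0107). Slc25a38 fell at 8 h in pericentral cells, from 16.9 ± 0.769 to 12.7 ± 0.662 CPM, by 0.42 (log2, SE 0.11, edgeR adjusted p = 0.0162). That call was lost without pericentral fed replicate 3 (-0.38), pericentral 8 h replicate 1 (-0.39) or 3 (-0.39). At 24 h it was back at 16.6 ± 1.34 CPM, a rise of 0.39 ± 0.11 from 8 h (edgeR adjusted p = 0.0339) that was lost without any 1 of 8 libraries.

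Of the 9 carriers of ADP, ATP and phosphate 6 were tested. Of these, Slc25a5 was called both by zone and by feeding state, as were 10.3% of all genes. Slc25a3 was called by zone only (11% of all genes), and Slc25a23 and Slc25a25 by feeding state only (28.3%). Slc25a3, which brings in the phosphate for ATP synthesis, was higher in periportal cells by 0.20 ± 0.04 (log2, averaged over states, edgeR adjusted p = 0.00312). Its pericentral group means ran from 241 ± 6.63 to 249 ± 4.62 CPM and its periportal ones from 280 ± 5.18 to 282 ± 14.7 CPM (SD, n = 3), and it was called in no fasting comparison. Slc25a5, an ADP/ATP exchanger, was higher in periportal cells by 0.24 ± 0.07 (edgeR adjusted p = 0.0166). In pericentral cells it rose from 299 ± 35.0 CPM at 8 h to 403 ± 21.0 CPM at 24 h, by 0.43 ± 0.12 (edgeR adjusted p = 0.029), a call lost without any 1 of 5 libraries (0.32 to 0.46). Slc25a23, an ATP-magnesium/phosphate carrier, fell at 8 h in periportal cells from 230 ± 28.7 to 169 ± 20.1 CPM, by 0.45 (SE 0.12, edgeR adjusted p = 0.0173). That call was lost without periportal fed replicate 3 (-0.34) or periportal 8 h replicate 2 (-0.42) or 3 (-0.38).

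Slc25a25, a calcium-regulated ATP-magnesium/phosphate carrier, rose at 24 h in pericentral cells from 84.2 ± 22.6 to 320 ± 34.1 CPM (SD, n = 3), by 1.92 ± 0.44 (log2, SE, edgeR adjusted p = 0.00658). In periportal cells fed libraries stood at 103, 138 and 223 CPM, those at 8 h at 208, 295 and 297 CPM and those at 24 h at 209, 311 and 700 CPM. The 24 h value was 1.39 ± 0.43 (edgeR adjusted p = 0.0369), with groups that overlapped. That call was lost without periportal fed replicate 1 (1.17) or 2 (1.31) and without periportal 24 h replicate 3 (0.75), the library at 700 CPM, and under no filter (1.39), limma-voom (1.28) and a fit of only the groups compared (1.40). Its exons overlap Naif1 on the opposite strand.

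Of the 9 nucleotide and cofactor carriers tested, 5 were called higher and 2 lower at 24 h against fed in pericentral cells (10.8% and 11.1% of all genes), and 4 higher and 0 lower in periportal cells (9.59% and 10%). Slc25a33, which carries pyrimidine nucleotides, was among the largest risers. In fed pericentral libraries it stood at 9.44, 10.4 and 10.5 CPM, after 8 h at 18, 25.3 and 25.7 CPM and after 24 h at 33.0, 30.2 and 38.8 CPM. In periportal libraries it stood at 8.29, 8.55 and 8.63 CPM, then at 15.7, 11.5 and 10.3 CPM, then at 25.2, 26.8 and 30.0 CPM. In both zones the 3 states did not overlap, and the periportal libraries lay below the pericentral ones in each state. Pericentral cells gained 1.18 ± 0.16 (log2, SE) after 8 h and 1.75 ± 0.16 after 24 h (edgeR adjusted p = 0.000108 and 2.95e-06).

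In periportal cells the 8 h rise of Slc25a33 was 0.56 ± 0.16 (edgeR adjusted p = 0.026) and the 24 h rise 1.69 ± 0.16 (edgeR adjusted p = 6.63e-06). The 8 h periportal call was lost without periportal fed replicate 1, 2 or 3 (0.55, 0.57 and 0.57), without periportal 8 h replicate 1 (0.37), under limma-voom (0.54) and in a fit of only the groups compared (0.56). From 8 h to 24 h it rose by 1.13 ± 0.16 in periportal cells (edgeR adjusted p = 0.000654). The pericentral rise over that interval, 0.56 ± 0.15 (edgeR adjusted p = 0.0277), was lost without pericentral 8 h replicate 1 (0.41) or 2 (0.62) or pericentral 24 h replicate 1 (0.57) or 3 (0.46). At 8 h the zone difference was -0.87 ± 0.16 (edgeR adjusted p = 0.00217), and it was not called in fed mice or at 24 h. With the states averaged, Slc25a33 was called lower in periportal cells. That call stood in all 6 alternative settings run and in all 18 fits that left out 1 library. The gene lies on chromosome 4 from 149744036 to 149774277 and overlaps Gm13068 on the opposite strand.

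Slc25a42, which imports coenzyme A, was lower in periportal cells and rose on fasting in both zones. Pericentral libraries stood at 57.2, 59.0 and 55.8 CPM when fed, at 83.1, 115 and 117 CPM after 8 h and at 102, 85.2 and 101 CPM after 24 h. Periportal libraries stood at 29.0, 38.2 and 43.5 CPM, then at 115, 68.6 and 64.6 CPM, then at 69.2, 72.9 and 69.1 CPM. Every fasted library was above every fed one of its zone, and the high periportal 8 h value came from replicate 1, the library with low Tat. The rise was 0.88 ± 0.19 (log2, SE) and 0.75 ± 0.19 in pericentral cells (edgeR adjusted p = 0.00608 and 0.0117) and 1.17 ± 0.20 and 0.93 ± 0.20 in periportal cells (edgeR adjusted p = 0.000953 and 0.00342) at 8 h and 24 h. The averaged zone difference was -0.48 ± 0.11 (edgeR adjusted p = 0.00588).

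Slc25a32, which carries folate and a flavin cofactor, was called higher at 8 h and at 24 h against fed in both zones. Pericentral libraries stood at 12.9, 14.3 and 12.3 CPM when fed, at 18.5, 21.5 and 23.2 CPM after 8 h and at 32.5, 23.7 and 33.0 CPM after 24 h. Periportal libraries stood at 13.5, 12.6 and 13.4 CPM, then at 18.8, 27.9 and 27.6 CPM, then at 30.5, 33.3 and 41.4 CPM. The 3 states did not overlap in either zone, whereas the zones overlapped in each state. The 24 h rise was 1.17 ± 0.16 in pericentral and 1.41 ± 0.16 in periportal cells (edgeR adjusted p = 9.94e-05 and 2.72e-05), and the 8 h rise 0.68 ± 0.16 and 0.91 ± 0.16 (edgeR adjusted p = 0.00936 and 0.00139). From 8 h to 24 h Slc25a32 was called in neither zone. The DESeq2 alternative called it higher in both, by 0.50 in pericentral and 0.51 in periportal cells (log2, DESeq2 Wald test adjusted p = 0.0392 and 0.0355).

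Slc25a17, a carrier of nucleotides and coenzyme A that sits in the peroxisome membrane, moved in pericentral cells. It stood at 59.0, 58.8 and 56.7 CPM when fed, at 42.2, 42.7 and 52.2 CPM after 8 h and at 42.0, 36.8 and 37.1 CPM after 24 h. In periportal libraries it stood at 60.8, 54.8 and 45.4 CPM, then at 58.4, 57.3 and 69.0 CPM, then at 46.8, 48.1 and 48.4 CPM. The pericentral fed and fasted libraries did not overlap, and the zones were apart at 8 h and at 24 h. The pericentral fall at 24 h was 0.59 (log2, SE 0.11, edgeR adjusted p = 0.00136). The 8 h fall of 0.35 (SE 0.11, edgeR adjusted p = 0.0482) was lost without any 1 of 14 libraries. The 8 h zone difference of 0.43 ± 0.11 (edgeR adjusted p = 0.0257) was lost without pericentral 8 h replicate 1 (0.37) or 2 (0.37) or periportal 8 h replicate 3 (0.34), and the averaged one of 0.21 ± 0.06 (edgeR adjusted p = 0.0314) without any 1 of 12.

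Slc25a51, which brings NAD+ into the matrix, rose at 24 h from 37.8 ± 1.56 to 112 ± 35.9 CPM (SD, n = 3) in pericentral cells and from 64.8 ± 21.4 to 185 ± 15.0 CPM in periportal cells. The log2 changes were 1.57 ± 0.30 and 1.51 ± 0.30 (edgeR adjusted p = 0.00183 and 0.00262). The averaged zone difference was 0.82 ± 0.17 (edgeR adjusted p = 0.00279), and the 8 h periportal value, 0.95 ± 0.29 (edgeR adjusted p = 0.0423), was lost without any 1 of 12 libraries. Pericentral 24 h replicate 2 stood at 72.5 CPM against 142 and 122 in its group. Slc25a16, a carrier linked to coenzyme A, rose in pericentral cells from 76.7 ± 6.09 to 100 ± 4.99 CPM at 24 h, by 0.39 ± 0.09 (edgeR adjusted p = 0.00658), and from 8 h to 24 h by 0.46 ± 0.09 (edgeR adjusted p = 0.00574). Its averaged zone difference of -0.16 ± 0.05 (edgeR adjusted p = 0.0397) was lost without any 1 of 11 libraries.

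Of the iron and glutathione carriers, Slc25a37 fell on fasting and Slc25a39 rose by a small amount. Slc25a37, mitoferrin 1, brings iron into mitochondria. It stood at 76.1, 68.4 and 59.4 CPM in fed pericentral libraries, at 31.4, 29.7 and 36.7 CPM after 8 h and at 34.1, 38.3 and 37.9 CPM after 24 h. The periportal libraries held it at 49.6, 57.3 and 50.3 CPM, then at 31.1, 20.1 and 18.7 CPM, then at 28.9, 15.5 and 21.4 CPM. Every fasted library was below every fed one of its zone. The change was -1.06 ± 0.20 (log2, SE) and -0.89 ± 0.20 in pericentral cells (edgeR adjusted p = 0.00187 and 0.00442) and -1.17 ± 0.20 and -1.26 ± 0.20 in periportal cells (edgeR adjusted p = 0.0011 and 0.000481) at 8 h and 24 h. The averaged zone difference was -0.54 ± 0.11 (edgeR adjusted p = 0.00307), and the 24 h one, -0.75 ± 0.20 (edgeR adjusted p = 0.0468), was lost without any 1 of 15 libraries. The related mitoferrin 2, Slc25a28, was called nowhere and lay between 11 and 21.1 CPM over all libraries.

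Slc25a39, which imports glutathione, stood at 288 ± 26.6, 268 ± 5.47 and 345 ± 9.92 CPM (SD, n = 3) in pericentral cells from fed to 24 h and at 301 ± 13.5, 286 ± 4.13 and 363 ± 13.5 CPM in periportal cells. At 24 h against fed the values were 0.26 ± 0.09 and 0.27 ± 0.09 (log2, SE, edgeR adjusted p = 0.0378 and 0.0363), lost without any 1 of 9 and of 6 libraries. From 8 h to 24 h they were 0.36 ± 0.09 and 0.34 ± 0.09 (edgeR adjusted p = 0.014 and 0.0237), lost without any 1 of 3 (pericentral 8 h replicates 1 and 2, 0.34 and 0.33, and pericentral 24 h replicate 3, 0.34) and of 5. Its relative Slc25a40 was called nowhere.

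Of the 3 relatives of the uncoupling proteins, Slc25a27 and Slc25a30 were called and Slc25a14 was not. Over all genes tested, 49.6% were called in at least 1 comparison. Slc25a27 was at low levels, with means of 0.334 ± 0.265 CPM (SD, n = 3) in fed pericentral and 0.993 ± 0.0643 CPM in fed periportal cells, and was higher in periportal cells by 0.95 ± 0.25 (log2, averaged, edgeR adjusted p = 0.0126). The fed zone difference of 1.57 ± 0.46 (edgeR adjusted p = 0.0453) was lost without any 1 of 13 libraries. Its pericentral rise at 24 h was 1.46 ± 0.46 (edgeR adjusted p = 0.0333), lost without pericentral fed replicate 1 (1.01) or 2 (1.34) or pericentral 24 h replicate 1 (1.33) or 3 (1.36). Slc25a30 stood at 14.8, 16.5 and 15.3 CPM in fed periportal libraries and at 97.3, 24.9 and 35.4 CPM after 8 h, with replicate 1 far above the others. The value of 1.76 ± 0.55 (edgeR adjusted p = 0.0461) was lost without any 1 of 12 libraries, and was 0.96 without periportal 8 h replicate 1.

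Of the carriers with another role or no settled substrate, Slc25a34 changed most on fasting. It lies on chromosome 4 from 141618824 to 141623821 and resembles the oxaloacetate carrier of yeast. It stood at 1.49, 1.73 and 1.44 CPM in fed pericentral libraries, at 4.75, 8.09 and 10.2 CPM after 8 h and at 9.30, 8.24 and 8.01 CPM after 24 h. In periportal libraries it stood at 1.36, 0.999 and 2.17 CPM, then at 9.61, 8.40 and 9.55 CPM, then at 8.38, 10.7 and 11.3 CPM. The fed libraries of each zone lay far below all fasted ones, 8 h and 24 h overlapped, and so did the zones. The rise was 2.30 ± 0.27 (log2, SE) and 2.45 ± 0.27 in pericentral cells (edgeR adjusted p = 3.07e-05 and 1.34e-05). It was 2.59 ± 0.27 and 2.74 ± 0.27 in periportal cells (edgeR adjusted p = 1.17e-05 and 7.86e-06) at 8 h and 24 h.

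Slc25a45, whose substrate is less settled, fell through the fast. It stood at 28.1, 33.5 and 33.4 CPM in fed pericentral libraries, at 17.9, 20.0 and 21.1 CPM after 8 h and at 12.3, 9.85 and 9.74 CPM after 24 h. The periportal libraries held it at 19.4, 22.1 and 18.9 CPM, then at 9.81, 19.3 and 12.2 CPM, then at 8.50, 9.64 and 7.86 CPM. The 3 pericentral states did not overlap, and the periportal 8 h libraries overlapped the fed ones. It fell by 1.57 (log2, SE 0.19) at 24 h in pericentral and by 1.22 (SE 0.19) in periportal cells (edgeR adjusted p = 2.72e-05 and 0.000329), and by 0.88 (SE 0.19, edgeR adjusted p = 0.00733) from 8 h to 24 h in pericentral cells. The averaged zone difference was -0.49 ± 0.11 (edgeR adjusted p = 0.00331).

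Other calls of Slc25a45 depended on single libraries. Its pericentral value at 8 h, -0.69 ± 0.18 (edgeR adjusted p = 0.0164), was lost without pericentral fed replicate 2 (-0.64) or 3 (-0.65) or pericentral 8 h replicate 1 (-0.62) or 2 (-0.69). The fed zone difference, -0.65 ± 0.18 (edgeR adjusted p = 0.0326), was lost without pericentral fed replicate 2 (-0.61) or 3 (-0.61) or periportal fed replicate 1 (-0.63), 2 (-0.73) or 3 (-0.61). The periportal value from 8 h to 24 h, -0.66 ± 0.19 (edgeR adjusted p = 0.0427), was lost without any 1 of 11.

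Slc25a46, an outer-membrane member that shapes mitochondria, rose in all 4 comparisons with fed mice. Pericentral libraries stood at 36.5, 36.5 and 28.9 CPM when fed, at 45.1, 55.3 and 52.8 CPM after 8 h and at 56.5, 50.3 and 58.3 CPM after 24 h. Periportal libraries stood at 30.7, 30.9 and 32.5 CPM, then at 48.9, 51.6 and 54.7 CPM, then at 50.9, 51.0 and 51.0 CPM. Every fasted library was above every fed one, and the zones overlapped in each state. The rise was 0.59 ± 0.10 (log2, SE) and 0.70 ± 0.10 in pericentral cells (edgeR adjusted p = 0.000821 and 0.000145) and 0.72 ± 0.10 and 0.70 ± 0.10 in periportal cells (edgeR adjusted p = 0.000187 and 0.00019) at 8 h and 24 h.

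In 11 tested carriers nothing was called: Slc25a4, Slc25a14, Slc25a24, Slc25a26, Slc25a28, Slc25a35, Slc25a36, Slc25a40, Slc25a43, Slc25a48 and Slc25a53. Slc25a4, the ADP/ATP exchanger typical of muscle, lay between 3.09 and 6.07 CPM over all libraries, and Slc25a26, which carries the methyl donor S-adenosylmethionine, between 3.95 and 6.88 CPM. A missed threshold does not show that these did not change. The 5 untested carriers reached at most 0.372 CPM (Slc25a18), 0.395 CPM (Slc25a2), 0.155 CPM (Slc25a31) and 0.0346 CPM (Slc25a41), and Slc25a54 was at 0 in every library. Of the 44, 12 have an exon overlapping another gene on the opposite strand, so that their levels are uncertain where strand was not used. Carriers with calls among them include Slc25a10, Slc25a11, Slc25a21, Slc25a23, Slc25a25, Slc25a33, Slc25a37 and Slc25a46.

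Genes that work with the carriers were listed apart, knowing earlier results of these data. At 24 h against fed, 10.8% of all genes were called higher and 11.1% lower in pericentral cells, and 9.59% and 10% in periportal cells. Of the 13 genes for carrier import and insertion into the inner membrane, 0 were called higher and 1 lower at 24 h against fed in each zone, and Timm8a1, a small import chaperone, was lower in periportal cells in all 3 states. Of 13 other mitochondrial metabolite transporters, 3 were higher and 1 lower at 24 h in each zone, and Sfxn1, which carries serine, was higher in periportal cells in all 3 states. Of 18 enzymes on either side of the carriers, 3 were higher and 4 lower at 24 h in pericentral cells and 2 higher and 4 lower in periportal cells. Got1, an enzyme of the malate-aspartate shuttle, and Pck1, a rate-limiting enzyme of gluconeogenesis, were higher in both, and citrate synthase (Cs), Acly, Gpd2 and Me1 were lower in both. Of 3 tested carrier-family genes with other symbols, the uncoupling protein Ucp2 was lower in periportal cells with the states averaged (9.96% of all genes), and nothing else was called.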

How the data were processed

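RNA was taken with a column kit and TRIzol and made into libraries with the NEBNext Ultra RNA kit, per the labels' protocols. The table deposited by the authors gives estimated counts by gene for 18 libraries. Per the submitters' processing notes, kallisto 0.46.0 and the mm10 build were used; the annotation and the use of strand are not given in the sources used here. Of the values, 67.5% to 70.5% were whole (tolerance 1e-09), and they were rounded before testing. No replicate pair agreed within sampling noise. Symbols came from a gene name table (27566 of 28030 matched). Genes passing filterByExpr were tested with edgeR 4.0.16 (R 4.3.3; TMM, robust quasi-likelihood F test, 1 fit of all 18 libraries, no covariates, 12 contrasts), adjusted by Benjamini-Hochberg over 12477 genes and called under 0.05. The procedure was tested on simulated data. SE is the size of a log2 change over the square root of F. Annotation is GENCODE M21. Alternatives were DESeq2 1.42.0 (size factors; Wald test), limma-voom (limma 3.58.1), scaling without the 20 most abundant genes, no filter, only the groups compared, the replicate number as a block and leaving out each library. Carriers called in at least 1 of the 12 contrasts are named with their log2 changes, and those among the 14 with the smallest adjusted p by library; 1 carrier counted among the members is not reported here. Library values of Slc25a25 and Slc25a30, and genes named from the other lists, were chosen after their values were seen. Members and lists were chosen with earlier results of these data known.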

Additional observations from a re-analysis of the deposited data

How the results depend on the processing

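Over 103 carrier calls and 2559 pairs of a call and an alternative, the call stood in 2285, was lost in 274 with the same direction and reversed in 0, and 70 calls stood under every alternative that could be run. The other 33 were each lost when some single library was left out. Of these 33, 23 were also lost with only the groups compared in the fit, 16 with no filter, 6 with the replicate block, 6 with limma-voom and 1 with scaling without the 20 most abundant genes. Counts of carriers called moved by more than 1.5 times in these cases. With the DESeq2 Wald test, 6 were called between the zones at 24 h (3 in the main analysis) and 8 in periportal cells from 8 h to 24 h (5). With limma-voom the latter was 3. With only the groups compared in the fit, 4 were called in pericentral cells from 8 h to 24 h (8), 8 in periportal cells at 8 h against fed (13) and 2 in periportal cells from 8 h to 24 h (5). That fit was not run for the averaged zone comparison, which needs all groups. Over all genes, 22 of 249 such counts moved by more than 1.5 times.

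When each library was left out in turn, counts ran from 3 to 7 for zone in fed mice, 4 to 9 at 8 h, 2 to 4 at 24 h and 14 to 18 averaged. In pericentral cells they ran from 9 to 14 at 8 h, 14 to 19 at 24 h and 3 to 9 from 8 h to 24 h. In periportal cells they ran from 9 to 13, 12 to 15 and 2 to 7. The zone count in fed mice was 3 without pericentral fed replicate 2, and the pericentral 8 h count 9 without pericentral 8 h replicate 1. The pericentral 8 h to 24 h count was 3 or 5 without replicate 1 or 2 of the pericentral 8 h libraries, and 4 without replicate 3 of the 24 h ones. The periportal one was 2 without replicate 2 or 3 of the periportal 8 h or 24 h libraries. It was 3 without replicate 3 of the pericentral fed, replicate 2 of the pericentral 8 h or replicate 1 of the periportal 24 h libraries.

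Same-numbered libraries are not stated to be paired, and their deviations from the group means correlated between -0.12 and 0.206 (median 0.0321). For libraries of different groups with different numbers the correlations ran from -0.168 to 0.144 (median -0.0207). With the replicate block, 6, 6, 3 and 17 carriers were called by zone (fed, 8 h, 24 h, averaged), 13, 18 and 11 in pericentral cells (8 h, 24 h, 8 h to 24 h), 12, 14 and 4 in periportal cells, and 0 for both zone differences. No carrier count moved by over 1.5 times with it. The 6 calls lost with it were Slc25a1 and Slc25a17 at 8 h in pericentral cells, Slc25a11 and Slc25a30 at 8 h in periportal cells, Slc25a21 from 8 h to 24 h in periportal cells and Slc25a16 between the zones with the states averaged.

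The number of 3 libraries per group limits every comparison, and values under about 1 CPM rest on few counts.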
